A study of Mus musculus with 12 samples.

Results

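Osmr, the gene that was knocked out in these mice, lies near the centromeric end of mouse chromosome 15. The 10 neighbours described here are Fbxo4, Prkaa1, Ttc33, Ptger4, Dab2, Fyb, Rictor, Wdr70, Nup155 and Nipbl. They were taken by symbol from the table of normalised read counts, which holds 43279 genes, and all 10 have a row there. Bone-marrow cells of adult naive mice, whose exact age the labels do not give, were sorted as lineage-negative, KIT+, SCA-1+, FLT3- and CD48-, a gate known to hold long-term and short-term hematopoietic stem cells, at 1000 cells per mouse. RNA was sequenced from 5 Osmr-/- mice (libraries 1, 2, 3, 5 and 6) and from 6 wild-type C57BL/6 mice (WT, libraries 1 to 6), 1 library per mouse. The labels give neither the strain in which Osmr was targeted nor the number of crosses to C57BL/6, and a further Osmr-/- sample, number 4, was not analysed here. The study addressed what the loss of oncostatin M receptor signalling in the bone marrow does to stem cells, and the levels of the genes beside the targeted locus were compared here.

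Osmr encodes the receptor chain that pairs with gp130 to carry the oncostatin M signal, mainly through JAK kinases and STAT transcription factors. In a line made by gene targeting, the DNA closest to the target is the last to be exchanged when the line is crossed to another strain, so a neighbour can differ in sequence from that of the controls as well as being close to the altered gene. The neighbours themselves serve ubiquitin ligation (Fbxo4), energy sensing (Prkaa1), prostaglandin E2 reception (Ptger4), endocytosis (Dab2), integrin activation (Fyb), growth signalling (Rictor), nuclear transport (Nup155) and chromosome folding (Nipbl).

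Library totals were 9500968 to 11193108 reads in Osmr-/- and 9886151 to 22144976 reads in WT. Osmr gave 4 reads over the 5 Osmr-/- libraries and 13 over the 6 WT libraries, so it offered no check of the genotype labels. The gate genes Kit and Ly6a (which encodes SCA-1) averaged 4455 and 6893 normalised counts in Osmr-/-, against 3740 and 5376 in WT. Slamf1 and Cd34, which vary within such cells, averaged 139 and 4597 in Osmr-/- and 297 and 4869 in WT. Flt3 and Cd48, whose proteins the gate excludes, were still read, at 389 and 853 in Osmr-/- and 504 and 637 in WT. Ptprc, listed with them, had 4093 to 5657 in Osmr-/- and 2043 to 3877 in WT, with no overlap. Cd3e, Cd5, Itgam and Ly6g, also listed, averaged at most 58.0 in Osmr-/- and 22.2 in WT. Summed normalised counts of 18 erythroid markers were 13464 to 20195 in Osmr-/- and 20328 to 63873 in WT. By these sums WT libraries numbered 1 to 3, at 56176 to 63873, stood apart from those numbered 4 to 6, at 20328 to 23043. The Osmr-/- libraries did not split that way. Their sums were 15080, 20195 and 13993 in libraries 1, 2 and 3, and 15319 and 13464 in libraries 5 and 6. Most of these sums came from Car2 and Car1. The erythroid ranges did not overlap between genotypes, and 17 of the 18 had a lower mean in Osmr-/-. The exception, Hbb-bt, had 707 to 1567 in Osmr-/- and 149.8 to 697 in WT. The labels name no batch, and the values within each number set are given beside each tested neighbour. In the 11 stromal and osteoblast markers, 9 with reads, the sums were 1326 to 1845 in Osmr-/- and 672 to 1185 in WT, mostly from Runx2, with Pdgfra and Acta2 at 0. The 14 granulocyte and monocyte markers summed to 10891 to 33553 in Osmr-/-, with library 3 highest through S100a8, S100a9 and Camp, and to 9270 to 17492 in WT. The part of these markers in the results was not tested. Nnt, on another chromosome and known to be deleted in part in the C57BL/6J substrain, averaged 952 ± 308 in Osmr-/- (SD, n = 5) and 270 ± 56.1 in WT (SD, n = 6), with a log2 difference of 1.78 and an adjusted limma p of 0.0373. It was the 1 gene that passed as higher, and passed in 11 of 24 alternatives (adjusted p 1.16e-06 to 0.367). The difference was 2.22 in libraries 1 to 3 and 1.23 in libraries 4 to 6.

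Of the 10 flanking genes, Fbxo4 and Fyb were the ones whose levels separated the genotypes completely, both lower in Osmr-/-. Each of the 5 Osmr-/- libraries lay below each of the 6 WT libraries for these 2 genes, while the other 8 overlapped. Across all 13358 genes tested, 1.42% had every Osmr-/- library below every WT library. Neither gene passed the adjusted threshold in limma, where 0.0225% of all genes tested passed in either direction and 0.015% passed as lower. Both passed in the authors' deposited table, as 2.79% of its genes did in the lower direction.

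**Figure D1:**
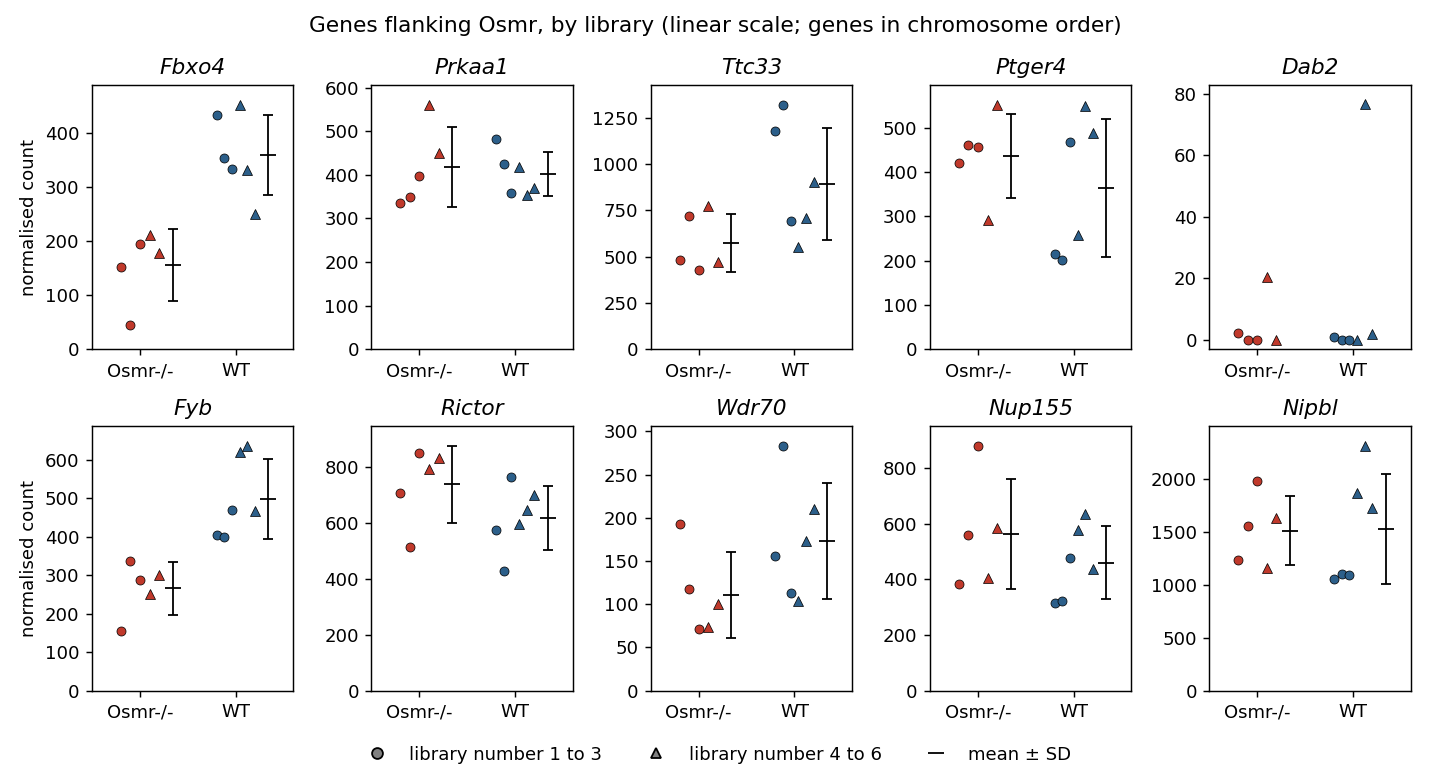
Normalised counts of the 10 flanking genes in each library, Osmr-/- left and WT right in each panel, with circles for library numbers 1 to 3, triangles for numbers 4 to 6 and the mean ± SD of each group beside the points (left out for Dab2, which was near 0). The Osmr-/- points lie wholly below the WT points for Fbxo4 (at most 211, against at least 250.3) and Fyb (at most 336, against at least 398), and overlap them in the other panels.

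The start regions of Fbxo4 and Fyb are shown because these are the 2 genes that separated the genotypes, with that of Rictor, the nearest neighbour of Osmr, for contrast. Sequences are from RefSeq on GRCm38.p6, run from 250 bases before to 50 bases after the annotated start on the strand of the gene, and have the 50 transcribed bases in capitals. Fbxo4 is at chr15:3979524-3979823 on the minus strand, Fyb at chr15:6579597-6579896 on the plus strand and Rictor at chr15:6708131-6708430 on the plus strand. The listed Fyb start lies inside the GENCODE gene model, downstream of its first annotated base.
Fbxo4: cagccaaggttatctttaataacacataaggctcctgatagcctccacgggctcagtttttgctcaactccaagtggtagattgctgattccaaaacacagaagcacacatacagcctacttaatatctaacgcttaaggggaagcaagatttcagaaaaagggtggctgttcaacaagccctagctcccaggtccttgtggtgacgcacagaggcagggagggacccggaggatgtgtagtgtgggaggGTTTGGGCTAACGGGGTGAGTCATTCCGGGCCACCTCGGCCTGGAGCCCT
Fyb: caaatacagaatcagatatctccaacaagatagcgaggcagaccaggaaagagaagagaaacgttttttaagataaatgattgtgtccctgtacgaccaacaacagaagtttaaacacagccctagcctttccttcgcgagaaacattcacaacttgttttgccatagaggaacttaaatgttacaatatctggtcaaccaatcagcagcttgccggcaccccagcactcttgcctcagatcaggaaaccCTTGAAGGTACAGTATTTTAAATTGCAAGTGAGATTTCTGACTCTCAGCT
Rictor: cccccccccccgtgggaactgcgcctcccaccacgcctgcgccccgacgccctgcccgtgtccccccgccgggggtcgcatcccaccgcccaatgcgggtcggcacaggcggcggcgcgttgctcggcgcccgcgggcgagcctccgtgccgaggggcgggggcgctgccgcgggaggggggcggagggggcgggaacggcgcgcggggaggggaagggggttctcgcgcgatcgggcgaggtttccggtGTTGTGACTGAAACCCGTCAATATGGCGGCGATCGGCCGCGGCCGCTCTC
The Fbxo4 and Fyb windows held 7 and 6 CG dinucleotides, and the Rictor window held 47. The median over 11673 start regions of tested genes was 20. The windows of Ptger4, Wdr70 and Nup155 held 25, 27 and 23, that of Prkaa1 held 52, and the 2 listed starts of Ttc33 held 10 and 13. At these listed starts Fbxo4 and Fyb had the fewest among the 8 tested neighbours with a window, and Nipbl was not among the matched entries. A link between the CG count and the genotype difference was not tested. A STAT-type motif, TTCNNNGAA, which reads the same on both strands, was absent from these 3 windows. It was present in 1 of the 11 windows of the 9 matched neighbours, at the upstream start of Dab2, and in 8.30% of all 32851 windows of this length.

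Fbxo4 encodes the substrate-binding F-box subunit of an SCF ubiquitin ligase, known for work on cyclin D1 turnover and on the telomere protein TRF1. It lies on chromosome 15 from 3965445 to 3979573 (GRCm38, GENCODE M21), and is the farthest of the 10, at 2.88 Mb between its start coordinate and the midpoint of Osmr. Its normalised counts were 152, 44.9, 196, 211 and 179 in Osmr-/- libraries 1, 2, 3, 5 and 6, against 250.3 to 453 with a median of 344 in WT. Library 2 was the lowest of the Osmr-/- libraries, and no Osmr-/- library reached the lowest WT library, number 6. The means were 156 ± 66.1 in Osmr-/- (SD, n = 5) and 359.7 ± 74.5 in WT (SD, n = 6). The log2 difference on the log2(normalised count + 1) scale was -1.34 (standard error 0.39, limma), which is 39.4% of the WT level with a 95% interval of 0.220 to 0.703 as a ratio. The exact two-sided permutation p over the 462 splits was 0.0022, the smallest that this design allows. The unadjusted limma p was 0.0037 and the adjusted p 0.129, so the difference did not pass. The authors' deposited table lists Fbxo4 as lower in Osmr-/-, at a log2 fold change of -1.05 (adjusted p 0.0276).

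Within the number sets Fbxo4 kept the same order of the groups. The log2 difference was -1.74 in libraries 1 to 3 and -0.78 in libraries 4 to 6, where Osmr-/- had 211 and 179 and WT had 453, 332 and 250.3. In that second set the erythroid markers summed to 15319 and 13464 in Osmr-/- and to 20328 to 23043 in WT. Without Osmr-/- library 2 the log2 difference was -0.94, with an adjusted p of 0.171.

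Fyb encodes ADAP, an adaptor of blood cells that couples receptor signals to integrin activation and is best known from T cells and platelets. It lies from 6522853 to 6663313, 0.321 Mb from the Osmr midpoint and 45.1 kb from Rictor. The counts were 154, 336, 287, 251 and 301 in the Osmr-/- libraries in the same order, against 398 to 636 with a median of 467 in WT. The highest Osmr-/- library, number 2, lay below the lowest WT library, also number 2. The means were 266 ± 69.4 in Osmr-/- (SD, n = 5) and 498 ± 104 in WT (SD, n = 6). The log2 difference was -0.93 with a standard error of 0.27, or 52.6% of the WT level with a 95% interval of 0.351 to 0.788 as a ratio. The exact permutation p was again 0.0022. Limma gave an unadjusted p of 0.0040 and an adjusted p of 0.130, and the authors' deposited table lists -0.85 as its log2 fold change (adjusted p 0.0161).

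The Fyb difference was -0.78 in libraries 1 to 3 and -1.04 in libraries 4 to 6. A megakaryocyte marker list of 12 genes, 11 of them with reads, summed to 9350 to 12650 in Osmr-/- and 10045 to 15881 in WT. The T and NK cell list of 12 genes, 10 with reads, summed to 4790 to 6554 in Osmr-/- and 3464 to 6954 in WT, nearly all of it from Nkg7. Cd3g and Klrd1 were at 0 in every library and Cd3e at 0 in all but WT library 1. Among the others Lck averaged 122 in Osmr-/- and 123 in WT, Trbc1 16.0 in Osmr-/- and 1.68 in WT, and Cd3d 4.86 in Osmr-/- and 0.812 in WT. The part of these markers in the Fyb difference was not tested. In these bulk libraries fewer cells that hold a transcript and less of it per cell cannot be told apart. Of the 5384 exon bases of Fyb, 319 are shared with the antisense gene Gm2245 and 231 with the pseudogene Gm7666. The library kit, SMART-Seq v4 with Nextera XT tagmentation, does not mark strand, so reads on the bases shared with Gm2245 are uncertain. Gm7666 lies on the same strand as Fyb, so reads on the bases shared with it are uncertain with any kit.

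Ttc33 and Wdr70 were also lower in Osmr-/- on average, with overlap between the groups. Ttc33 encodes a tetratricopeptide repeat protein and lies from 5185525 to 5218336, 1.66 Mb from the Osmr midpoint. Its counts were 485, 718, 428, 772 and 473 in Osmr-/-, against 553 to 1321 with a median of 807 in WT. All 5 Osmr-/- libraries lay below the WT median and 3 lay below every WT library. The means were 575 ± 158 in Osmr-/- (SD, n = 5) and 893 ± 301 in WT (SD, n = 6), with a log2 difference of -0.61, a 95% interval of -1.19 to -0.02, an exact permutation p of 0.0519 and an adjusted limma p of 0.263. The difference was -0.95 in libraries 1 to 3 and -0.23 in libraries 4 to 6, and the WT libraries above 1000 were numbers 1 and 2, at 1177 and 1321.

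Wdr70 encodes a WD-repeat protein and lies from 7873055 to 8099209, on the far side of Osmr and 1.03 Mb from its midpoint. The counts were 193, 117, 70.9, 73.1 and 101 in Osmr-/-, against 103 to 283 with a median of 164 in WT. Library 1 of Osmr-/- lay above the WT median and the other 4 below it. The log2 difference was -0.65 with a 95% interval of -1.51 to 0.21, an exact permutation p of 0.0909 and an adjusted limma p of 0.411. It was -0.54 in libraries 1 to 3 and -0.85 in libraries 4 to 6. Wdr70 had the fewest reads of the tested neighbours, 498 over the Osmr-/- libraries and 1256 over the WT libraries, and its interval was the widest.

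Rictor lies closest to Osmr, with its end 13.2 kb from the end of Osmr, and the 2 genes point towards each other. It encodes the subunit that defines mTOR complex 2, the form of the mTOR kinase that phosphorylates AKT and SGK1. Its counts were 707, 513, 849, 792 and 831 in Osmr-/-, against 430 to 764 with a median of 620 in WT. Libraries 3, 5 and 6 of Osmr-/- lay above every WT library, and library 2 lay below the WT median. The means were 738 ± 137 in Osmr-/- (SD, n = 5) and 618 ± 115 in WT (SD, n = 6). Limma gave a log2 difference of 0.26 with a 95% interval of -0.23 to 0.74, an exact permutation p of 0.184 and an adjusted limma p of 0.584. It was 0.23 in libraries 1 to 3 and 0.33 in libraries 4 to 6. The interval leaves room for a level from 0.851 to 1.67 times that of WT.

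Prkaa1, Ptger4, Nup155 and Nipbl did not separate the groups, and the sign of each depended on which libraries were compared. Prkaa1 encodes a catalytic subunit of AMP-activated protein kinase, AMPK, and lies from 5143861 to 5181899. Its counts were 335, 349, 398, 561 and 451 in Osmr-/-, against 354 to 483 with a median of 394 in WT. Its log2 difference was 0.04 with a 95% interval of -0.46 to 0.55 (adjusted p 0.943), and it was -0.22 in libraries 1 to 3 and 0.40 in libraries 4 to 6. Osmr-/- libraries 1 and 2 lay below every WT library and library 5 above every one.

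Ptger4 encodes EP4, a receptor for prostaglandin E2, a lipid known to act on hematopoietic stem cells, and lies from 5206661 to 5244187. Its counts were 420.2, 460.0, 456, 292 and 552 in Osmr-/-, against 203 to 549 with a median of 363 in WT. WT libraries 1, 2 and 4 were at 203 to 258, and WT libraries 3, 5 and 6 at 468 to 549. For Ptger4 the log2 difference was 0.35 with a 95% interval of -0.35 to 1.05 and an adjusted p of 0.602, at 0.70 in libraries 1 to 3 and -0.03 in libraries 4 to 6. The Ttc33 and Ptger4 gene models run on opposite strands and share 82 exon bases. Of the 6648 exon bases of Ptger4, 1015 (15.3%) are shared with the pseudogene Gm15937, and of the 2163 of Ttc33, 199 (9.20%) with the antisense gene Gm15938. Reads on these bases are uncertain.

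Nup155 encodes a scaffold protein of the nuclear pore. It lies from 8109273 to 8161247, and its start is 10.1 kb from that of Wdr70, which runs the other way. The counts were 384, 560, 880, 405 and 586 in Osmr-/-, against 313 to 635 with a median of 457 in WT. Library 3 of Osmr-/- was the highest of all 11. Between genotypes the log2 difference was 0.27 with a 95% interval of -0.34 to 0.89 and an adjusted p of 0.646, at 0.65 in libraries 1 to 3 and -0.16 in libraries 4 to 6.

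Nipbl encodes the protein that loads cohesin, the ring complex that folds chromosomes and holds sister chromatids together, and lies from 8290617 to 8444463. Its counts were 1234, 1556, 1972, 1159 and 1624 in Osmr-/-, against 1055 to 2308 with a median of 1415 in WT. In WT the libraries numbered 1 to 3 held 1055, 1103 and 1086 and those numbered 4 to 6 held 1861, 2308 and 1726, and the Osmr-/- libraries did not split that way. Its log2 difference was 0.03 with a 95% interval of -0.51 to 0.57 and an adjusted p of 0.967. It was 0.53 in libraries 1 to 3 and -0.51 in libraries 4 to 6. The difference between the number sets was not tested for any of these genes.

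**Figure D2:**
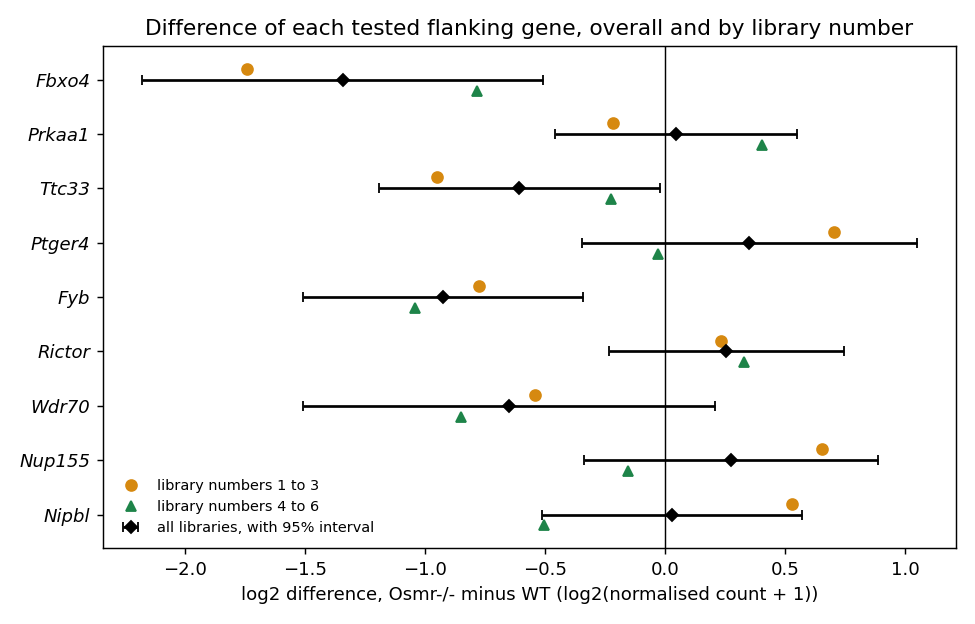
Log2 difference of the 9 tested flanking genes, Osmr-/- minus WT, on the log2(normalised count + 1) scale, with diamonds and 95% intervals for all libraries, circles for library numbers 1 to 3 and triangles for numbers 4 to 6. Fbxo4, Ttc33, Fyb and Wdr70 lie left of 0 in both sets and Rictor lies right of 0 in both, while Prkaa1, Ptger4, Nup155 and Nipbl cross 0 between the sets (Nipbl at 0.53 and -0.51).

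Dab2, which encodes a clathrin adaptor known from macrophages and endothelium, was nearly unread in this gate. It lies from 6299788 to 6440712 and had 22 reads over the Osmr-/- libraries and 80 over the WT libraries, too few to enter the test across genes. In Osmr-/- its normalised counts were 2.27, 0, 0, 20.6 and 0, against 0 to 76.7 with a median of 0.520 in WT. Library 5 held most of the signal in each genotype, 20.6 in Osmr-/- and 76.7 in WT. A library without Dab2 reads allows 3 reads, or 2.33 to 3.87 normalised counts in those libraries, for counting error only. The exact permutation p was 0.859, and no difference could be detected with so few reads. In library 5 the 11 macrophage markers summed to 7102 in Osmr-/- and 7154 in WT, of which Lyz2 made up 5804 in Osmr-/- and 5390 in WT. The others went both ways: Mrc1 had 0 in Osmr-/- and 344 in WT, and Mertk 3.09 in Osmr-/- and 55.5 in WT, while C1qb had 241 in Osmr-/- and 157 in WT, and C1qc 319 in Osmr-/- and 179.6 in WT. Among WT libraries, number 5 was the highest for Mrc1, Mertk, Vcam1 and Cd163. It was not for Cd68, Csf1r, C1qa, C1qb, C1qc, Spic or Lyz2. Among Osmr-/- libraries, number 5 was the highest for C1qc and Cd163 alone. The 10 endothelial markers summed to 2122 in Osmr-/- library 5 (range 1460 to 2643) and 1714 in WT library 5 (range 1478 to 2775). What part the macrophage and endothelial markers had in the Dab2 signal was not tested.

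By level per length, as normalised counts per kilobase of annotated exon, Ttc33 was highest and Dab2 lowest of the 10 in both genotypes. Ttc33 had 266 ± 72.9 per kilobase in Osmr-/- (SD, n = 5) and 413 ± 139 in WT (SD, n = 6). Nipbl followed in Osmr-/-, at 160.1 ± 34.7, and then Prkaa1 at 90.0 ± 19.7, Fbxo4 at 76.4 ± 32.3 and Ptger4 at 65.6 ± 14.1. In WT Fbxo4, at 176 ± 36.4, came before Nipbl at 162 ± 55.3, Fyb at 92.6 ± 19.3 and Prkaa1 at 86.2 ± 10.8. In WT the differences between Fbxo4 and Nipbl and between Fyb and Prkaa1 were smaller than their SDs. In Osmr-/- so were those between Prkaa1 and Fbxo4 and between Fbxo4 and Ptger4. Nup155, Rictor and Wdr70 had 47.1, 43.6 and 29.6 per kilobase in Osmr-/- and 38.5, 36.5 and 46.3 in WT. Exon lengths count every annotated transcript, so they can exceed that of the transcript in use.

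As a group the neighbours lay on both sides of 0. Of the 9 tested, 4 had a log2 difference below 0 and 5 above, and their median was 0.03. Among all genes tested 7104 were below 0 and 6254 above, and the median was -0.05. At an adjusted p under 0.05, 0 of the 9 passed in limma. At an unadjusted p under 0.05, 3 were lower (Fbxo4, Fyb and Ttc33) and 0 higher, and 10.5% of all genes were lower at that level. DESeq2 on the recovered reads passed 2 of the 9, Fbxo4 and Fyb at adjusted p of 0.0407 and 0.0456, and passed 3.15% of its genes as lower. EdgeR on the same reads passed 0 of the 9 and had 3 lower at an unadjusted p under 0.05, where 8.77% of all genes were lower.

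The 9 genes also varied from library to library in different ways. After each genotype's mean was removed, Pearson's r over the 11 libraries ran from -0.73 (Ttc33 with Nup155) to 0.85 (Nup155 with Nipbl) among the 36 pairs. Fbxo4 with Fyb had 0.52 before the genotype means were removed and -0.25 after. The libraries share their depth and number sets across genes, so these are descriptions. The most similar gene of each neighbour was the highest r in a search over all tested genes, with genotype means left in. Such a search gives high values by itself, and no link was tested. Over all tested genes the one most like Fbxo4 across the 11 libraries was Fmo5 (r 0.95). That most like Fyb was Tef (r 0.93), on chromosome 15 but not within 5 Mb of Osmr. Those for Ttc33, Rictor and Wdr70 were Tiprl (0.94), Dpy19l1 (0.90) and Ccng2 (0.91). Mxd1, Plcb3, Lpin2 and Dnajc11 were most like Prkaa1 (0.85), Ptger4 (0.91), Nup155 (0.92) and Nipbl (0.93).

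The wider neighbourhood gave the same picture of mixed directions. Of 80 genes of the table that start within 5 Mb of the Osmr midpoint, 30 were tested, 14 below 0 and 16 above, with a median log2 difference of 0.04. The median size of the difference, whatever its sign, was 0.46, beside 0.49 for chromosome 15 beyond 5 Mb and 0.49 for the other chromosomes. None of the 30 passed in limma, and 7 had an unadjusted p under 0.05, which is 23.3% beside 21.0% of the 438 tested genes farther along chromosome 15 and 17.9% of the 12068 on other chromosomes. The 21 genes in that window that are not among the 10 had 10 below 0 and 11 above. At an unadjusted p under 0.05, 2 of these were lower and 2 higher, which is 19.0% of the 21. In 0 of the 21 did the genotypes separate completely in either direction. The share was 2.51% farther along chromosome 15 and 2.54% on other chromosomes, so a count of 0 among 21 genes says little.

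Among those 21 the lowest p in the higher direction belonged to Rpl37, a ribosomal protein gene, to Skp2, the F-box subunit of the ligase that degrades p27, and to Rai14. Skp2, 2.27 Mb from the Osmr midpoint, had 299 ± 75.3 in Osmr-/- (SD, n = 5) and 189 ± 32.6 in WT (SD, n = 6). Its log2 difference was 0.64, with 4 of 5 Osmr-/- libraries above every WT library, an exact permutation p of 0.0065 and an adjusted limma p of 0.259. It was 0.67 in libraries 1 to 3 and 0.59 in libraries 4 to 6. Rpl37 had 8640 ± 3694 in Osmr-/- (SD, n = 5) and 4607 ± 2758 in WT (SD, n = 6), and Rai14 had 567 ± 103 in Osmr-/- and 380.3 ± 289 in WT. The log2 difference was 0.84 and 0.87 in the 2 number sets for Rpl37, and 1.32 and 0.38 for Rai14. In the lower direction Spef2, a flagellar gene, followed Fbxo4 and Fyb, with 18.9 ± 26.4 in Osmr-/- (SD, n = 5) and 53.9 ± 48.1 in WT (SD, n = 6). Its lower level came from libraries 1 to 3, where the 3 Osmr-/- libraries were at 0 and the log2 difference was -5.17, against -0.12 in libraries 4 to 6. Oxct1, a ketone body enzyme gene near Fbxo4 chosen after its value was seen, had a log2 difference of -0.49 (p 0.040, adjusted p 0.259).

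**Figure D3:**
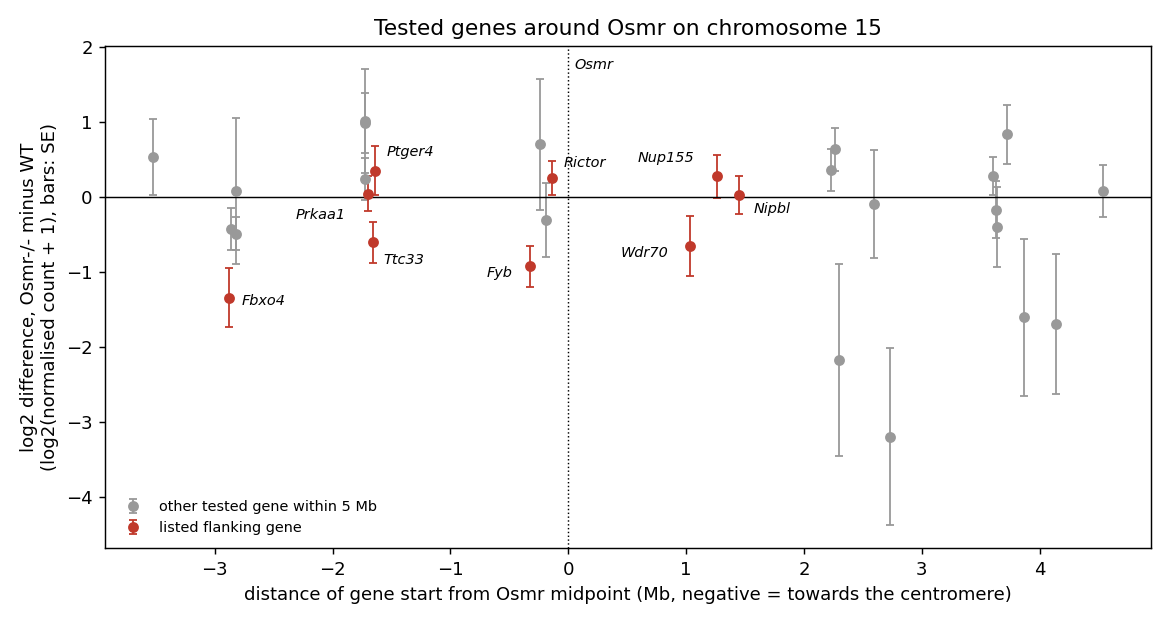
Log2 difference, Osmr-/- minus WT, of the 30 tested genes that start within 5 Mb of the Osmr midpoint (dotted line) against distance in Mb, with standard errors, the listed flanking genes in red and the others in grey. Points lie on both sides of 0, and Rictor, the closest, lies at 0.26 while Fbxo4, 2.88 Mb away, lies at -1.34.

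Partners of each neighbour were listed too. Except for Skp2 they lie on other chromosomes or far along chromosome 15, and 0 of those tested passed in limma. The 16 partners named here are the 2 of lowest p in each list, in these same libraries. That choice favours genes with the same sign in both number sets. All 16 had the same sign in both, which is therefore no sign of repeatability, and Prr5l and Nup133 were near 0 in libraries 4 to 6. In the list of SCF ligase and cyclin D genes around Fbxo4, 8 of 13 were below 0 and 5 above (median -0.12). At an unadjusted p under 0.05, 3 were lower and 2 higher, beside 10.5% lower and 7.5% higher among all genes. The cyclin gene Ccnd2 had 1765 ± 151 in Osmr-/- (SD, n = 5) and 2928 ± 678 in WT (SD, n = 6), with no overlap, a log2 difference of -0.70, an exact permutation p of 0.0043 and an adjusted limma p of 0.121. Its kinase partner Cdk4 had 4157 ± 721 in Osmr-/- and 6941 ± 2152 in WT (adjusted p 0.152).

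The integrin activation list around Fyb had 9 of 14 below 0 and 5 above, with a median of -0.10. Skap2, which encodes an adaptor that binds ADAP, had 961 ± 311 in Osmr-/- (SD, n = 5) and 1820 ± 806 in WT (SD, n = 6), with a log2 difference of -0.86 and an adjusted p of 0.181. Fermt3, the kindlin of blood cells, had a log2 difference of -0.54 (adjusted p 0.381). Skap2 was the 1 gene of the list at an unadjusted p under 0.05.

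In the mTOR list around Rictor 8 of 16 were below 0 and 8 above, with a median of -0.01. Mtor itself had 156 ± 97.1 in Osmr-/- (SD, n = 5) and 337 ± 142 in WT (SD, n = 6), with a log2 difference of -1.34 and an adjusted p of 0.190, and Prr5l, a subunit of complex 2, had -2.04 (adjusted p 0.266), from -3.39 in libraries 1 to 3 and -0.06 in libraries 4 to 6. The AMPK list around Prkaa1 had 10 of 15 below 0 and 5 above and a median of -0.25. Its regulatory subunit gene Prkag1 had a log2 difference of -1.31 (adjusted p 0.232) and the folliculin partner gene Fnip1 had 0.47 (adjusted p 0.248).

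The cohesin list around Nipbl had 8 of 14 below 0 and 6 above, with a median of -0.06. The ring subunit gene Smc3 had 1324 ± 399.7 in Osmr-/- (SD, n = 5) and 2012 ± 514 in WT (SD, n = 6). Stag2, another cohesin subunit gene, had 3082 ± 440.4 in Osmr-/- (SD, n = 5) and 2227 ± 419 in WT (SD, n = 6), so that these partners lay on opposite sides of 0, at -0.61 and 0.48, with adjusted p of 0.222 and 0.225. The nuclear pore list around Nup155 had 9 of 17 below 0 and 8 above, a median of -0.05 and 0 genes at an unadjusted p under 0.05. Nup133 had 0.71, with 1.28 in libraries 1 to 3 and 0.06 in libraries 4 to 6, and Nup210 had -0.89 (adjusted p 0.334 and 0.340).

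The prostaglandin list around Ptger4 had 5 of 10 below 0 and 5 above, with a median of -0.02. Ptges3, a cochaperone also described as a prostaglandin E synthase, had 0.49 and the synthase gene Ptges2 had -1.56 (adjusted p 0.195 and 0.201). The clathrin uptake list around Dab2 had 11 of 14 below 0 and 3 above, with a median of -0.40. The adaptor subunit gene Ap2m1 had 205 ± 76.9 in Osmr-/- (SD, n = 5) and 598 ± 445 in WT (SD, n = 6), with a log2 difference of -1.32 (adjusted p 0.152), and the clathrin heavy chain gene Cltc had 0.44 (adjusted p 0.252).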

How the data were processed

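The signal that the authors deposited is a normalised count per gene, the read count divided by the size factor DESeq2 gave each library. The authors also deposited log2 values (regularised log and variance stabilised) and a DESeq2 comparison whose columns hold a log2 fold change, its standard error and Wald score, and the p-value and adjusted p-value. All 615 genes past 0.05 in that deposited table had the sign of WT minus Osmr-/-, so its fold changes are printed with the sign turned. Per the submitters' processing notes, reads were processed with Trimmomatic 0.36.6, FastQC 0.72, HISAT2 2.1.0, HTSeq 0.9.1 and the DESeq2 wrapper 2.11.40.6 on mm10. The sources used here state neither the annotation nor the strand setting.

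Genes that reached 10 normalised counts in 5 or more libraries (13358 of 43279, including 9 of the 10 neighbours) were tested on log2(normalised count + 1) with limma 3.58.1 in R 4.3.3 (trend, genotype alone), with Benjamini-Hochberg adjustment over all of them and 0.05 as the threshold. Single values were tested by exact two-sided permutation. Whole reads were recovered from the steps of each column (largest distance from a whole number 1.4e-09) for edgeR 4.0.16 and DESeq2 1.42.0. The limma, edgeR and DESeq2 steps were tested on simulated data. Positions and exon lengths came from GENCODE M21 on GRCm38, the mm10 assembly, and start regions from RefSeq. The neighbours and lists were chosen with earlier results of these data known. Genes were named by rule: Osmr, the 10 neighbours, Nnt and the 3 of lowest p in each direction within 5 Mb. The 2 of lowest p in each pathway list and the most similar gene of each neighbour were named too. No label says that same-numbered libraries of the 2 genotypes are pairs. The number sets 1 to 3 and 4 to 6 were known from an earlier description of these data, and all alternatives were listed with it in view. The labels do not say whether mice of 1 genotype were littermates.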

Additional observations from a re-analysis of the deposited data

Results flagged for a closer look

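Among 22 groups of libraries examined for a value far from the rest (10 neighbours and Osmr, in 2 genotypes), 3 held one. The rule is set to flag about 1 in 20 groups by chance, but that rate does not hold where many libraries are at 0, as in these groups. Dab2 had 20.6 normalised counts in Osmr-/- library 5 and 76.7 in WT library 5, each far above the other libraries of its genotype. Osmr had 6.72 in WT library 2, where the other WT libraries had 0 to 2.08. All 3 come from genes with few reads.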

How the results depend on the processing

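Fbxo4, Ttc33, Fyb, Rictor and Wdr70 kept their direction in all 24 alternatives. Fbxo4 ranged from -1.74 to -0.78 (adjusted p 0.0407 to 0.531) and Fyb from -1.04 to -0.61 (adjusted p 0.0456 to 0.397), and both passed in DESeq2 alone, where the count of neighbours passing as lower was 2. Nipbl turned to -0.0256 in edgeR, -0.0098 in DESeq2 and -0.51 in libraries 4 to 6, where Ptger4 turned to -0.0308 and Nup155 to -0.16, and Prkaa1 turned to -0.22 in libraries 1 to 3. Leaving out 1 library at a time gave -0.0746 to 0.16 for Nipbl, below 0 without Osmr-/- 3 or 6 or WT 1, 2 or 3, and -0.0668 to 0.12 for Prkaa1, below 0 without Osmr-/- 5. The cause was not tested.

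Over all genes, limma passed 1 higher (Nnt) and 2 lower. The counts were 13 and 42 with a pseudocount of 10, 18 and 51 with the regularised log, 17 and 49 with variance stabilised values, 133 and 204 with a covariate for the number sets, and 139 and 314 in DESeq2. The lower count was 1 with a pseudocount of 0.5 and 1 in edgeR. Limma passed 0 in either direction with no filter, a filter at 50, the replicate block, and libraries 1 to 3 or 4 to 6 alone, and the genes with an unadjusted p under 0.05 then numbered 2779, 2122, 2418, 2933 and 1384. Leaving out 1 library gave 0 to 30 higher and 0 to 92 lower, the most without WT 6 and 0 in both directions without Osmr-/- 2 or WT 2, 3, 4 or 5, where 1898 to 2454 genes had an unadjusted p under 0.05. Without WT 1 the lower count was 0, and without Osmr-/- 1 or 3 the higher count was 0. Same-numbered libraries correlated at 0.0203 to 0.0986 after removal of group means, so the numbers were not taken as pairs. With the replicate block Fbxo4 had -1.27 (adjusted p 0.163) and Fyb -0.86 (adjusted p 0.169), and it changed no call among the neighbours. The median of genes near Osmr was 0.24 within 2 Mb and 0.04 within 10 Mb. Dab2 without the filter had -0.26 (adjusted p 0.920).

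Read depth limits Dab2 and Osmr.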
